A study of Mus musculus with 3 samples.

Results

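MicroRNA genes are described here as places in the genome near which Seh1 peaks were listed in mouse neural stem cells. The members were the genes whose name in either peak list was Mir followed by a digit, or began with Mirlet7. There were 341 such genes among the 9838 genes named in the lists, 305 with at least 1 Seh1 peak and 95 with at least 1 IgG peak. The study profiled chromatin by ChIP-seq, in which formaldehyde-fixed chromatin is sheared, precipitated with an antibody and sequenced. All 3 libraries came from wild-type primary neural stem cells of the newborn mouse cortex, grown as a dividing culture with the growth factors EGF and bFGF on coated plates. One library was precipitated with an antibody to Seh1, a subunit of the nuclear pore, one with IgG as the background control, and one was input chromatin, of which no separate list was used here. With 1 library per group there was no replicate, so no test was made and every comparison is a description of these libraries. Peak lists hold no expression levels, so the labelled cell type was not checked against its markers and no member is known from these data to be transcribed.

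MicroRNAs are short RNAs cut from a hairpin in a longer primary transcript, which is often the intron of a protein-coding gene or a long non-coding RNA. Bases 2 to 8 of the mature strand, the seed, pair with target messenger RNAs, and genes that share a seed are counted as a family. In neural stem cells microRNAs such as miR-9, miR-124 and let-7 are known to act in the change from division to differentiation. The start site that the annotation gives to most microRNA genes is the 5′ end of the hairpin itself, so a distance here is the distance to the hairpin and not to the promoter of its primary transcript.

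The first sequences shown are the 4 hairpins that a Seh1 peak covered in whole or in most of their length, shown because peaks over a member's hairpin were rare. They are from RefSeq (GRCm38.p6), written 5′ to 3′, and the capitals mark the mature strands.
Mir101a: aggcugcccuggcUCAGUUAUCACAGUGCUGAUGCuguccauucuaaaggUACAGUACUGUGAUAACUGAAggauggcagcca
Mir199a-1: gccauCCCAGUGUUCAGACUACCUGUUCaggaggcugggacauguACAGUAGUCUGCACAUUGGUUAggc
Mir679: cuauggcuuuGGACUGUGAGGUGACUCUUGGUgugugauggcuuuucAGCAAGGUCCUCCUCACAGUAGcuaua
Mir3965: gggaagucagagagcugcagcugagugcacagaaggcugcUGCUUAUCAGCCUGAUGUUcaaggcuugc
The next are mature strands of the neuronal, glial and p53-linked microRNAs described further on, shown because their seeds say which of them belong together. Here the capitals mark the seed.
miR-138-5p (Mir138-1, Mir138-2): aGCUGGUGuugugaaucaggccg
miR-129-5p (Mir129-1): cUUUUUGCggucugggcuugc
miR-128-3p (Mir128-2): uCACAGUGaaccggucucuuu
miR-153-3p (Mir153): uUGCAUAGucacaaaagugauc
miR-218-5p (Mir218-2): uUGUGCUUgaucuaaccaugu
let-7i-5p (Mirlet7i): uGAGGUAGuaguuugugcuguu
let-7d-5p (Mirlet7d): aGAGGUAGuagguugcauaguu
miR-30a-5p (Mir30a): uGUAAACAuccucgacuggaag
miR-30c-5p (Mir30c-2): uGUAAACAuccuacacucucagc
miR-181a-5p (Mir181a-1): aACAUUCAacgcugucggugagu
miR-181b-5p (Mir181b-1): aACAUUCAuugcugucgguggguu
miR-29a-3p (Mir29a): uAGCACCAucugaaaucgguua
miR-29b-3p (Mir29b-1): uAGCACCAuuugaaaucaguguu
miR-194-5p (Mir194-1): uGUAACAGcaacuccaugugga
In the table, 256 of the 305 genes with a Seh1 peak and 83 of the 95 with an IgG peak had a mature sequence.

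The share of genes given a peak was lower for microRNA genes than for all genes in both libraries. Each peak is given to the gene with the nearest annotated start, so a gene is given a peak only where no other start is nearer. Of 1228 microRNA genes with a curated transcript, 301 (24.5%, interval 22.1 to 27.0) were given a Seh1 peak, against 32.6% of all 26216 such genes, 33.0% of protein-coding genes and 33.7% of long non-coding RNA genes. The IgG list gave a peak to 93 of the microRNA genes (7.57%, interval 6.16 to 9.20), against 11.8% of all genes. Intervals are 95% exact binomial (Clopper-Pearson) and cover counting error only, and neighbouring peaks and genes are not independent. Small nucleolar RNA genes, also short and often intronic, were lower than microRNA genes in the Seh1 list, with 16 of 126 (12.7%).

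Closely spaced hairpins had the lowest shares. Neighbouring starts divide the nearby peaks between them, so the way peaks were given to genes acts on this share. Among 385 microRNA genes with another one within 10 kb, 32 (8.31%, interval 5.75 to 11.5) were given a Seh1 peak, and among the 843 without such a neighbour 269 (31.9%, interval 28.8 to 35.2) were, close to the share over all genes. The IgG list showed the same order, with 8 (2.08%) and 85 (10.1%). Hairpins inside a protein-coding gene were given a Seh1 peak in 189 of 824 cases (22.9%) and those outside in 112 of 404 (27.7%). In the control these shares were 5.70% and 11.4%.

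**Figure D1:**
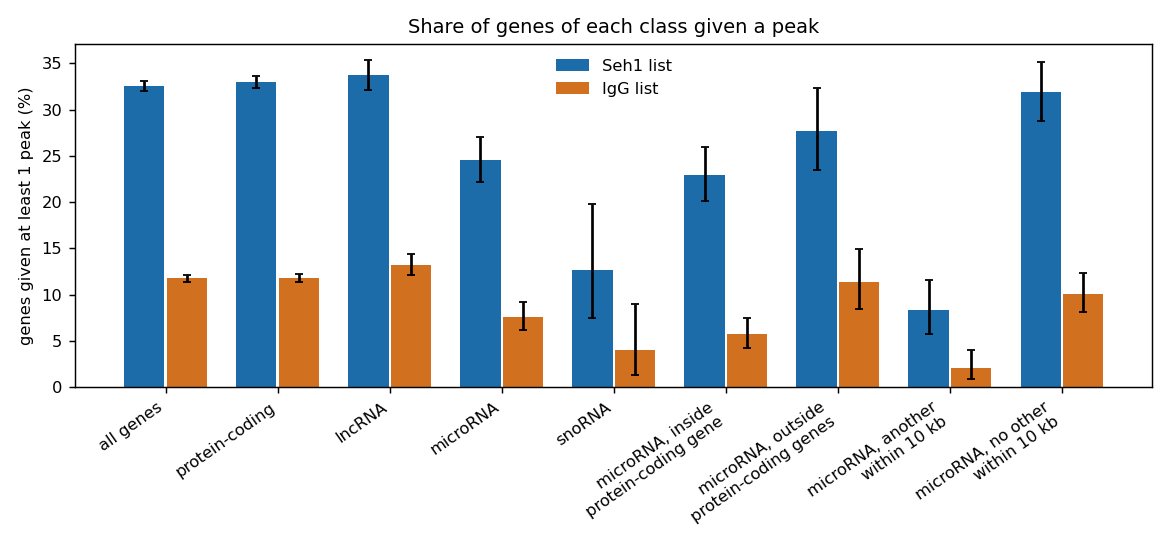
Percent of genes of each class given at least 1 peak (vertical axis) in the Seh1 list (blue) and the IgG list (orange), with 95% exact binomial intervals as error bars. MicroRNA genes stood at 24.5% and 7.57%, below all genes, and those with another microRNA gene within 10 kb at 8.31% and 2.08%.

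Seh1 peaks given to microRNA genes numbered 554 of 16113 (3.44%, interval 3.16 to 3.73). IgG peaks numbered 178 of 5314 (3.35%, interval 2.88 to 3.87), and the intervals overlapped. Without the 30 IgG peaks given to Mir101c the IgG share was 2.80% (interval 2.37 to 3.28). Most genes had a single peak: 178 of the 305 in the Seh1 list (58.4%, against 57.7% of all genes) and 59 of the 95 with an IgG peak (62.1%, interval 51.6 to 71.9, against 70.5% of all genes). A pair of Seh1 peaks fell to 70 genes, and 3 or more to 57. The median width was 265 bp, against 266 bp over the whole Seh1 list.

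Most of these peaks were far from the hairpin. The median distance of a Seh1 peak from the annotated start was 44.6 kb (interval 38.7 to 51.2), against 37.8 kb (interval 36.8 to 38.8) for all Seh1 peaks. Only 13 (2.35%) lay within 1 kb and 95 (17.1%) within 10 kb, against 1.92% and 18.1% of all Seh1 peaks, while 151 (27.3%) lay more than 100 kb away. Upstream peaks were 235 (42.4%), against 43.4% of all peaks. In the IgG list the median was 62.4 kb (interval 37.4 to 97.5), with 3 peaks within 1 kb. Mir101c alone held 30 of the IgG peaks, and without it the IgG median was 101 kb (interval 64.9 to 179). The median over all IgG peaks was 57.4 kb.

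**Figure D2:**
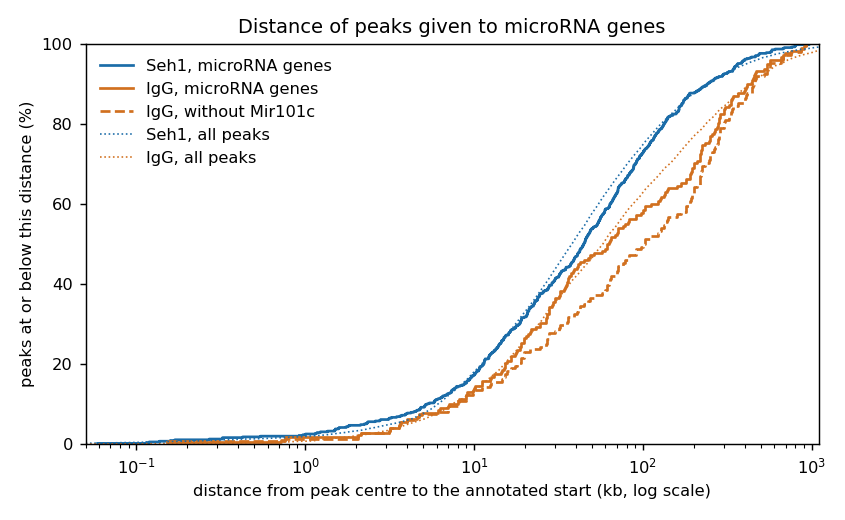
Cumulative percent of peaks (vertical axis) by distance from the peak centre to the annotated start (horizontal axis, kb, log scale), for peaks of microRNA genes (solid), of microRNA genes without Mir101c (dashed) and all peaks of each list (dotted). The Seh1 curve of microRNA genes reaches 50% at 44.6 kb and the IgG curve without Mir101c at 101 kb.

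Hairpins covered by a peak were few: 4 Seh1 peaks of the 554 (0.722%) lay over one and 0 IgG peaks did. For 0 of 178 the exact upper limit is 2.05%, or 1.69% by 3 counts of the total. The Seh1 share lies below both limits, so a difference was not detectable from these counts. An IgG peak did cover a microRNA hairpin outside the naming rule, described at the end. Mir101a, whose product is known to repress the histone methyltransferase Ezh2, lay wholly inside a Seh1 peak of 340 bp at chr4:101346744-101347083 (mm10), with all 83 bp covered. Mir3965 also lay wholly inside its peak, with 69 of 69 bp at chr5:134326095-134326539. The peak at Mir199a-1 covered 62 of 70 bp at chr9:21496503-21496863, and the peak at Mir679 covered 65 of 74 bp at chr12:109715396-109715641, along with 7 bp of the neighbouring hairpin Mir494. None of these 4 genes was given an IgG peak, as was the case for most members with a Seh1 peak (59 of 305, 19.3%, were in both lists). The other members with the nearest Seh1 peaks were Mir466d (159 bp upstream), Mir411 (169 bp upstream), Mir7016 (270 bp downstream), Mir8113 (323 bp downstream), Mir7119 (324 bp downstream), Mir2136 (426 bp upstream), Mir7072 (543 bp upstream) and Mir6987 (920 bp upstream). Mir466d is a repeated hairpin, and its annotated start lies on chromosome 2 away from the gene's position in the RefSeq table. In the IgG list the nearest peaks were 152 bp upstream of Mir710, 717 bp from Mir101c and 756 bp from Mir1951, then 2.05 kb from Mir3473h and 2.14 kb from Mir344f.

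Many Seh1 peaks lay in introns of the genes that carry the hairpins. By the annotation class, 235 of the 554 Seh1 peaks (42.4%, interval 38.3 to 46.7) were intronic, against 36.8% of all Seh1 peaks, and 274 (49.5%) were intergenic, against 54.3%. Exons held 26 (4.69%), promoter regions 8, transcript ends 6, 3′UTRs 3 and non-coding exons 2. Of the intronic peaks, 188 (80.0%, interval 74.3 to 84.9) were in a gene that also contains the hairpin. Another 40 were in another gene, 6 in the member's own transcript and 1 in a transcript with no match. MicroRNA genes lie inside a protein-coding gene in 824 cases and outside in 404, and each peak is given to the nearest start. The way peaks were given to genes therefore acts on the 80.0%. First introns held 33 of the 235 (14.0%, interval 9.87 to 19.2), against 27.1% of all intronic Seh1 peaks. An intronic peak nearer to the host's own start is given to the host, so the way peaks were given to genes acts on this share. In the IgG list 42 of 178 peaks (23.6%) were intronic, or 28.4% (interval 21.3 to 36.4) without Mir101c, against 33.5% of all IgG peaks. The IgG intronic peaks were in the gene with the hairpin in 30 of 42 cases (71.4%, interval 55.4 to 84.3).

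The 228 intronic Seh1 peaks in a matched gene other than the member itself fell in 137 host genes, of which 111 hold the hairpin. The 137 include Mir466p, matched by its transcript to a peak on chromosome 18 although its RefSeq position is on chromosome 2. Its place as a host is therefore uncertain. Of the hosts, 6 are described here. They are the hosts with the most such peaks, with ties taken by symbol, and Ttc28 (4, given to Mir701) tied with the last of them, Itpr1 and Sorcs2. The spans of the 6 run from 106 kb (Cables1) to 587 kb (Slit3). No count of peaks per length was set beside them, so their counts are not read as high or low. Ephb1, a receptor for the membrane-bound ephrin-B ligands that spans 433 kb, held 9 intronic and 2 exonic Seh1 peaks. All 11 were given to Mir7243 at 51.2 to 349 kb from the hairpin, and 1 IgG peak fell in intron 4. Slit3, a secreted ligand of Robo receptors that spans 587 kb and carries Mir218-2, held 9 intronic peaks and 1 in exon 19 of 36. All 10 were given to Mir218-2 and 0 to the Slit3 start, at 16.0 to 202 kb from the hairpin. Of these, 8 lay upstream of the hairpin, 6 of them in intron 4, and Slit3 held 0 IgG peaks. Pax5, a transcription factor of B cells and the midbrain, held 7 Seh1 peaks, 6 of them given to Mir5120 in introns 5 to 8. Cables1, a protein that links Cdk5 and Abl kinases, held 5, all given to Mir1901. Itpr1, the inositol trisphosphate receptor, held 5, of which 4 were given to Mir7661. Sorcs2, a sorting receptor of the Vps10p family, held 11, of which 4 in intron 1 were given to Mir7689 and 7 to other genes. Pax5, Cables1, Itpr1 and Sorcs2 held 0 IgG peaks each. The IgG list is shorter (5314 peaks against 16113) and its depth is unknown, so no host was compared between the lists on a count of 0.

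**Figure D3:**
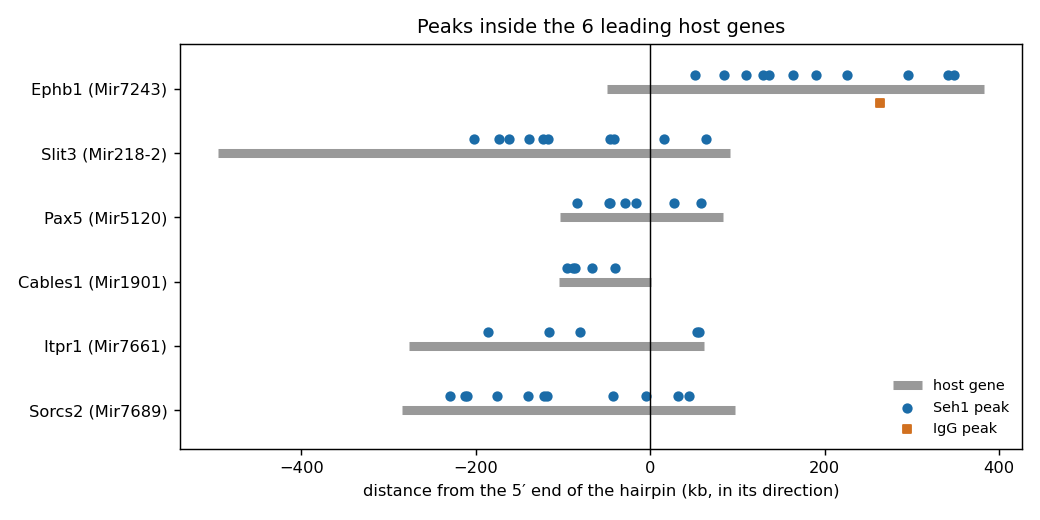
Seh1 (blue circles) and IgG (orange squares) peaks inside 6 leading host genes by intronic Seh1 peaks given to a microRNA (Ttc28, tied with Itpr1 and Sorcs2, is not drawn), by distance from the 5′ end of the hairpin (horizontal axis, kb). Grey bars span each host gene, with the microRNA in brackets, and Ephb1 is the only host of the 6 with an IgG peak.

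The widest Seh1 peaks were taken over all members. They were 925 bp in an intron of Tafa5 (69.3 kb from Mir6393) and 819 bp in intron 2 of Hspa12a (11.4 kb from Mir3086). Then came 611 bp in a long terminal repeat 168 kb from Mir5130 and 575 bp in intron 12 of Eif4g3 (10.8 kb from Mir6399). Pax5 held the next, of 557 bp. The members with the most Seh1 peaks were Mir7243 (11), Mir218-2 (10), Mir5127 (7) and Mir6341 (7), followed by Mir5120 (6), which tied with Mir592, Mir6378, Mir7021 and Mir7025. The peaks of Mir5127 were all intergenic, 106 to 413 kb from the hairpin, and Mir6341 had 5 intergenic peaks and 2 in an intron of A830018L16Rik.

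In both libraries the share of the 4 neural lists given a peak had an interval that included the share of all microRNA genes. These lists count long host RNAs, such as Mir9-3hg, which the share of all microRNA genes does not. The lists of neuronal, stem cell and proliferation, glial and p53-linked microRNAs together hold 118 genes, and 20 of them were given a Seh1 peak (16.9%, interval 10.7 to 24.96), against 24.5% of all microRNA genes. The IgG list gave a peak to 12 (10.2%, interval 5.37 to 17.1), against 7.57%. Long host RNAs were 4 of the 20 and 3 of the 12. Without them 16 neural genes were given a Seh1 peak and 9 an IgG peak. The shares and intervals were not recalculated on that basis, so the comparison with all microRNA genes is not like for like. By list, a Seh1 peak was given to 14 of 57 neuronal genes (24.6%, interval 14.1 to 37.8), 1 of 31 stem cell and proliferation genes (3.23%, interval 0.0816 to 16.7, below the share of all microRNA genes), 3 of 20 glial genes (15.0%, interval 3.21 to 37.9) and 2 of 10 p53-linked genes (20.0%, interval 2.52 to 55.6). The IgG counts were 10, 0, 2 and 0. The Seh1 interval of the stem cell and proliferation list includes the 8.31% of microRNA genes with another within 10 kb. How many genes of that list are so placed was not counted. Within 10 kb of the annotated start there were 6 genes with a Seh1 peak, Mir138-1, Mir138-2, Mir129-1, Mir9-3hg, Mir181a-1 and Mir145a, and 2 with an IgG peak, Mir30a and Mir30c-2. Over all members the counts within 10 kb were 85 of the 305 genes with a Seh1 peak and 19 of the 95 with an IgG peak.

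Of the neuronal genes, both copies of miR-138, a brain-enriched microRNA known for limiting dendritic spine growth, had a Seh1 peak close by, and neither had an IgG peak. At Mir138-1 the peaks were 1.59 kb (chr9:122681115-122681463) and 15.5 kb upstream, and at Mir138-2 the peak was 2.34 kb upstream (chr8:94321842-94322108). These are the only genes of the table with the seed GCUGGUG. The peak at Mir129-1 was 2.60 kb downstream (chr6:29025098-29025340). Mir128-2, from a brain microRNA that lowers neuronal excitability, had a Seh1 peak 12.1 kb upstream in intron 14 of its host Arpp21, and another 74.5 kb downstream. The peak of Mir153 was 15.0 kb upstream in an intron of Gm5441. Mir9-3hg, the long RNA that carries a copy of miR-9, had peaks 9.75 and 12.3 kb upstream, and Mir124a-3, a copy of miR-124, had peaks 45.4 and 46.1 kb upstream. No IgG peak was given to any of these 7 genes. Most genes with a Seh1 peak had none: 19.3% of the members with a Seh1 peak, and 21.1% of all such genes, were in both lists.

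The remaining neuronal genes had peaks in both lists or in 1 of them. The 5 Seh1 peaks of Mir125b-2 were 74.3 to 261 kb downstream and all centred in a repeat, and its IgG peak was 189 kb away. Mir99ahg, Mir100hg and Mir30c-2 were also in both lists, with Seh1 peaks at 21.1 kb, at 18.8 and 19.2 kb, and at 29.5 kb. The Mir99ahg Seh1 peak centred in an endogenous retrovirus repeat. Mirlet7i had 1 Seh1 peak, 131 kb from the hairpin in an intron of Ppm1h, and Mir124a-1hg had 1, 50.4 kb upstream in a short interspersed repeat. The IgG list named Mir30a (6.08 kb), Mirlet7d (11.1 kb), Mir125b-1 (35.7 and 70.5 kb), Mir99a (57.3 kb), Mir124-2hg (103 and 470 kb) and Mir137 (210 kb), which the Seh1 list did not. Mir125b-1 lies within Mir100hg (chr9:41376526-41615185), which had a Seh1 peak in its own intron. Which of these names a peak takes depends on the nearer start.

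The glial and p53-linked genes were few. Mir181a-1 had a Seh1 peak 5.79 kb upstream, in a LINE repeat, and IgG peaks 248 and 442 kb upstream. Its neighbour Mir181b-1, with the same seed, was given 1 IgG peak 19.7 kb downstream and 0 Seh1 peaks. The hairpins lie side by side, at chr1:137966455-137966541 (Mir181a-1) and chr1:137966639-137966718 (Mir181b-1). Each peak is given to 1 start only, so which of these genes was given a peak is not read as a difference between them. Mir29a had a Seh1 peak 45.4 kb downstream. Mir29b-1 had 2, at 50.7 and 63.7 kb upstream in intron 3 of the long non-coding RNA Lncpint. The same limit holds for these neighbours, at chr6:31062660-31062747 (Mir29a) and chr6:31063023-31063093 (Mir29b-1). Mir145a, known in smooth muscle, had a Seh1 peak 1.82 kb downstream in exon 5 of the long non-coding RNA Carmn, which contains it. Mir194-1 had a peak 15.0 kb upstream in intron 14 of Iars2, a mitochondrial tRNA synthetase gene. Mir290a, from a cluster active in embryonic stem cells, had the single Seh1 peak of the stem cell and proliferation list, 17.2 kb upstream.

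**Figure D4:**
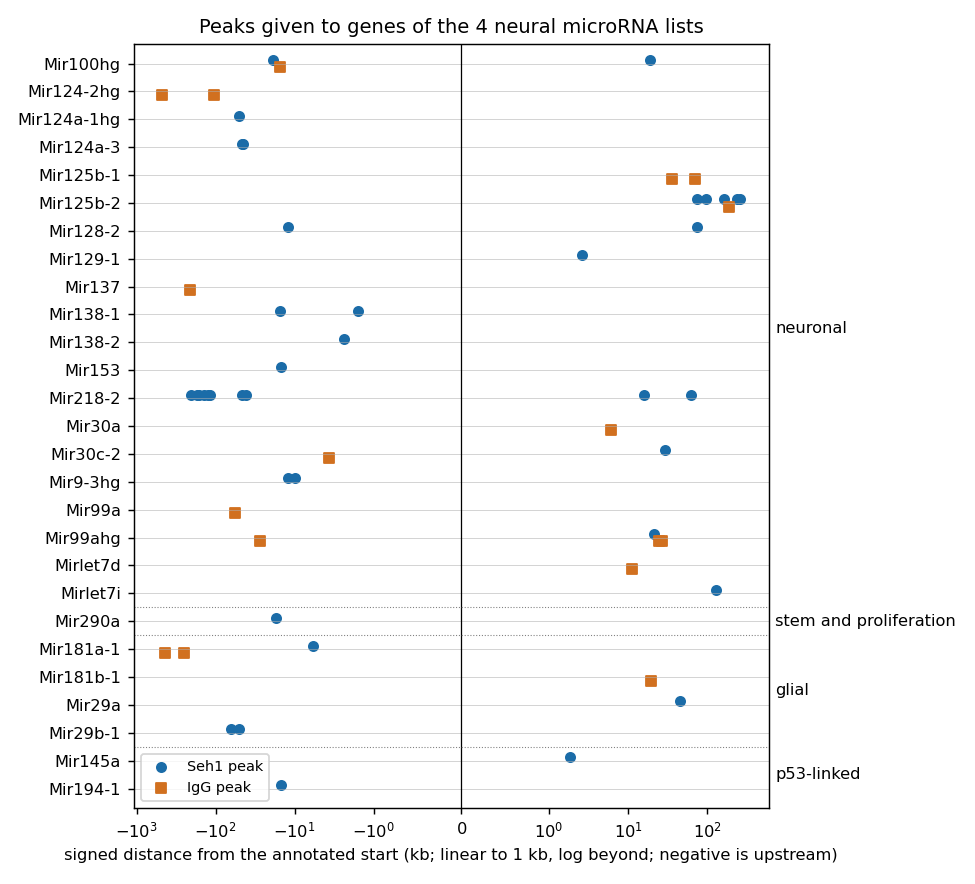
Each Seh1 (blue circles) and IgG (orange squares) peak given to a gene of the 4 neural microRNA lists, by signed distance from the annotated start (horizontal axis, kb, linear to 1 kb and logarithmic beyond). Few peaks lie close to a hairpin, with 6 genes reached within 10 kb by Seh1 and 2 by IgG.

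A pair of large hairpin clusters was examined as whole spans. The imprinted cluster on chromosome 12 (chr12:109563692-109743795, 180 kb) holds 52 listed microRNA genes, which are expressed from the maternal chromosome. It contained 4 Seh1 peaks, given to Mir882 (1.23 kb upstream), Mir411 (169 bp upstream), Mir679 (59 bp upstream) and Mir544 (1.18 kb downstream). It also contained 3 IgG peaks, of which 2 were given to Mir379 (4.62 and 7.10 kb upstream) and 1 to Mir882 (12.6 kb downstream). Of the listed genes, 3 were given a Seh1 peak and 1 an IgG peak, and Mir882 is not on the list. The span of the hairpin cluster within an intron of Sfmbt2 (chr2:10466663-10518279, 51.6 kb, 71 genes) held 0 peaks of either library. No count of peaks per length over the genome was set beside the spans, so their counts are not read as high or low. The list that goes with this cluster has 81 genes, of which 71 lie in the span. Of the 81, 11 were given 30 Seh1 peaks, but 17 of the peaks were off the gene and only 5 genes had one at their own place, and 3 genes were given an IgG peak.

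**Figure D5:**
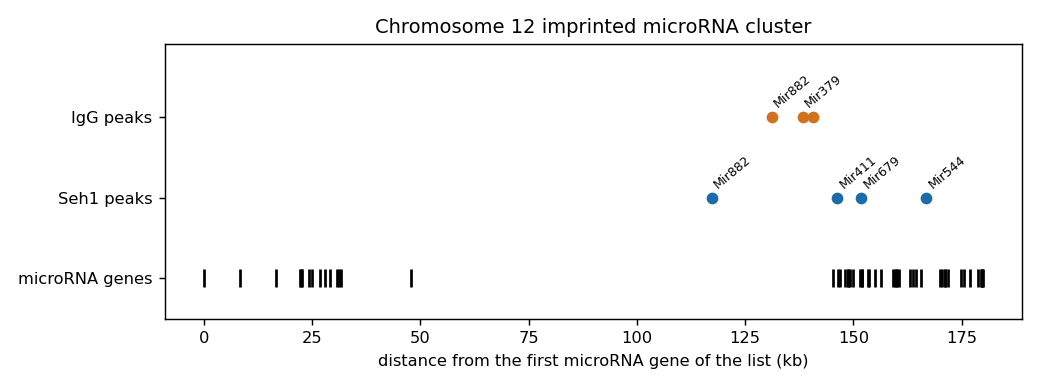
Positions of microRNA genes (black ticks), Seh1 peaks (blue) and IgG peaks (orange) across the imprinted cluster on chromosome 12, as distance from the first listed gene (horizontal axis, kb). The 4 Seh1 and 3 IgG peaks all lie beyond 117 kb.

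Seeds were counted among the genes with a Seh1 peak. These genes carried 356 different seeds, and 19 of the seeds were carried by more than 1 of them. How many seeds are shared over all microRNA genes was not counted, so the 19 are not read as few or many. The let-7 seed GAGGUAG is carried by 13 genes in the table, of which Mirlet7i and Mir1961 had a Seh1 peak and Mirlet7d an IgG peak. The miR-29 seed AGCACCA is carried by 4 genes, with a Seh1 peak at Mir29a and Mir29b-1. The miR-15 and miR-16 seed AGCAGCA is carried by 11 genes, of which 3 had a Seh1 peak (Mir195b, Mir6342 and Mir6353). For the miR-30 seed GUAAACA, shown above in miR-30a and miR-30c, 1 of 5 genes had a Seh1 peak and 2 an IgG peak. The miR-181 seed ACAUUCA had 1 of 6 and 2. Over all microRNA genes with a curated transcript, 24.5% were given a Seh1 peak and 7.57% an IgG peak. The families are small and were not tested against these shares. Neighbouring hairpins of a family, such as Mir181a-1 and Mir181b-1, divide the nearby peaks between them.

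Genes in both lists were counted next. Of the members, 59 were in both lists, 19.3% of those with a Seh1 peak and 62.1% of those with an IgG peak. Over all genes the shares were 21.1% and 58.3%. No Seh1 peak of a member overlapped an IgG peak by 1 bp or more, 0 of 554 (exact upper limit 0.664%, or 0.542% by 3 counts of the total). The share over the whole list was 60 of 16113 (0.372%), which lies below both limits, so a difference was not detectable from these counts. For genes in both lists the nearest Seh1 and IgG centres were a median of 42.7 kb apart, with 7 of 58 within 10 kb and the shortest gap at Mir6390 (2.76 kb), then Mir99ahg (3.38 kb), Mir466d (4.04 kb) and Mir148a (7.003 kb). Other members of both lists with a near Seh1 peak were Mir1899 (5.08 kb), Mir761 (5.88 kb), Mir678 (6.13 kb), Mir706 (8.25 kb) and Mir5104 (8.97 kb), whose nearest IgG peaks lay at 134, 8.03, 19.02, 59.7 and 41.1 kb. Mir882 had peaks of both libraries at 1.23 kb and 12.6 kb. Mir7094-2 had 5 Seh1 and 6 IgG peaks, at 7.16 to 581 kb and at 159 to 524 kb.

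Mir101c stood apart in the IgG list. It was given 30 IgG peaks, 16.9% of all IgG peaks of the members, and 0 Seh1 peaks. They lay within chr9:3000190-3038227, 717 bp to 38.3 kb downstream, and 29 of the 30 centred in the major satellite GSAT_MM, a repeat of the centromere region. The satellite share of the IgG peaks of the members was therefore 16.3%, against 1.77% of all IgG peaks. The mature miR-101c is a stretch of 19 of the 21 bases of miR-101a-3p, from position 2 to 20.
miR-101a-3p: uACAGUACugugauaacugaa
miR-101c: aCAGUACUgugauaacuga
The hairpin Mir101a, under a Seh1 peak, lies on chromosome 4.

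Repeats made up a similar part of the Seh1 peaks of members and of the whole list, 38.3% and 39.8%, with long terminal repeats at 16.6% and 17.0% and LINE elements at 12.1% and 10.6%. In the IgG list LINE elements were at 23.6%, or 28.4% without Mir101c, against 31.8% over all IgG peaks. For 27 Seh1 peaks (4.87%) of 10 genes and 8 IgG peaks (4.49%) of 5 genes, the annotated start was off the gene's place in the RefSeq table. Several belong to repeated families, such as Mir466d, Mir466p and Mir467e, and for these genes the name given to the peak is uncertain.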

How the data were processed

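Peak lists of the Seh1 and the IgG library were analysed, and the input library entered no comparison. The authors ran HOMER's annotatePeaks.pl on mm10 (GRCm38), per the file headers, which gives each peak the nearest annotated start and its distance. The submitters' processing notes name Bowtie2 and HOMER without versions and list the builds hg18 and hg38, whereas the headers name mm10. Neither caller nor threshold is named in these sources. Every peak has a deposited score of 0, so peak height and depth are unknown. Genes were matched by Entrez identifier to the RefSeq table (341 of 341), and hosts by the transcript in the annotation text. An annotated start over 1 kb beyond a gene's ends, or on another chromosome, was called off the gene. Intervals of medians come from order statistics. The named genes were the genes of the neural lists, those in both lists and those with the nearest, most or widest peaks. Members and lists were chosen with earlier results of these data known. Alternatives were peak width, distance limits, overlap rules, and leaving out Mir101c or repeats, these last chosen after seeing the data. Counting was tested on simulated data. Python 3.11.15, pandas 2.3.3 and scipy 1.17.1 were used.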

Additional observations from a re-analysis of the deposited data

How the results depend on the processing

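With only peaks wider than the minimum width, 61 microRNA genes and 6 neural ones were given an IgG peak, and the IgG median distance was 36.6 kb. With only peaks within 100 kb, the Seh1 intron share was 47.1% and the medians were 23.8 kb (Seh1) and 23.4 kb (IgG). Within 10 kb, 85 genes (6 neural) were given a Seh1 peak and 19 (2 neural) an IgG peak, with medians of 4.73 and 4.74 kb, as a limit on distance must lower these values. Leaving out Mir101c, chosen after seeing the data, gave an IgG share of 2.80% and an IgG median of 101 kb. Leaving out peaks centred in repeats, also chosen later, gave a Seh1 intron share of 47.1% and a Seh1 median of 32.1 kb. The other 41 planned and 18 added values stayed within the limits set. For counts the limit was a ratio of 1.5, so some falls count as within it. Without peaks centred in repeats the genes with a Seh1 peak fell from 305 to 219. The neural genes with a Seh1 peak fell from 20 to 14 with only peaks wider than the minimum. Without host-gene names they fell to 16. No paired analysis was possible because each group has 1 library. Depth, unknown for these lists, limits how far counts of the Seh1 and IgG lists can be set side by side.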

Other observations

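One hairpin outside the naming rule had an IgG peak over it. Gm24148, also listed as Mir3535, lay wholly inside an IgG peak at chr1:86351898-86352133, with all 147 bp of the hairpin covered and the peak centre 112 bp from the annotated start.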
